A study of Mus musculus with 4 samples.

Results

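Notch receptors, their ligands and processing enzymes, the Hes and Hey repressors and the Id genes were measured with Affymetrix arrays in whole mouse brains at embryonic day 14.5. The set is a list of 37 genes, out of 18194 genes that the array's annotation names. Its probe sets were those annotated with 1 gene symbol only, that of a listed gene. That gave 72 probe sets for 36 genes, out of 45037 that are not array controls. Maml3 had no probe set under this rule, and the only one for Maml2 was too dim to test, so 35 genes were tested. The knockout arrays (n = 2) came from embryos that carried Brn4::Cre with homozygous floxed alleles of both SoxC genes (Sox4 flox/flox and Sox11 flox/flox). The control arrays (n = 2) came from embryos with the same floxed alleles, for which the labels name no Cre. Both groups had a mixed 129SvJ/C57Bl/6J background. Brn4::Cre is named for the gene Pou3f4 (Brn4), so cells that never used this driver would keep both genes, and whole brain mixes many cell types. The title of the series speaks of the spinal cord, but the tissue labels name whole brain. The samples are labelled as biological replicates, with neither the number of embryos behind each array nor their sex given.

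Notch signalling passes between neighbouring cells. Delta and Jagged ligands on one cell bind a Notch receptor on the next, Adam proteases and then gamma-secretase cut the receptor, and the freed intracellular part enters the nucleus, binds Rbpj with a Mastermind (Maml) coactivator and turns on genes such as Hes1 and Hes5. In the embryonic brain this keeps radial glia in the progenitor state, since Hes proteins repress proneural genes. Id proteins act beside it: they lack a DNA-binding region, pair with E proteins such as Tcf3, Tcf4 and Tcf12, and so keep proneural factors from DNA. They are also well-known targets of BMP signalling.

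The deleted genes were read first. Every Sox11 probe set (6 of 6) was lower in the knockout and passed the test, at 2.29-fold to 9.08-fold. Of 6 tested Sox4 probe sets, 4 fell by 2.13-fold to 6.48-fold, 1 rose by 3.55-fold (log2 change 1.83, adjusted p = 6.84e-06) and 1 did not pass. The one that did not pass was the brightest, with means of 37770 in the knockout and 35433 in the control (0.09 ± 0.05, adjusted p = 0.242). The Sox4 probe set with the smallest fall lost its call without knockout 1 (adjusted p = 0.063). Where their probes lie relative to the deletion is not known here. Values are MAS5 signals, which summarise the probes of a probe set on a linear scale. Changes are knockout minus control on the log2(signal + 16) scale, which understates the change of dim probe sets. A gene is said to have risen or fallen where limma's adjusted p was under 0.05. Each gene is read at its brightest probe set unless another is named, and levels are not compared between probe sets. With 2 arrays per group, precision is limited throughout. In whole-brain RNA, fewer cells of a type and less RNA per cell cannot be told apart.

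The cells in the samples were read through marker lists. Sums below add linear signals, so the brightest genes of a list weigh most in them. Most of the choroid plexus sum is Ttr, with 43852 and 40127 in the knockout, against 38108 and 38226 in the control. Most of the erythroid sum is Hbb-y, and neither Ttr nor Hbb-y passed. Neuronal markers were present on all arrays, their 10 signals adding to 120069 to 124640 in the knockout, against 151916 to 158208 in the control, and 6 of 10 fell, Ina the most (-1.02), while Snap25 rose (0.62). Radial glial markers, a list that also holds Hes5, summed to 89549 to 90407, against 81617 to 85600, with 3 of 9 risen (Nes, Pax6 and Vim) and Prom1 fallen. Microglial markers summed to 20715 to 22864 in the knockout, against 6287 to 7053 in the control, and all 9 tested rose, with log2 changes from 1.22 (P2ry12) to 2.14 (C1qa). Endothelial markers summed to 10435 to 10939, against 7542 to 8282, with 5 of 9 risen (Cdh5, Kdr, Tek, Cldn5 and Esam). Pericyte and smooth muscle markers summed to 11746 to 12959, against 9067 to 10241, with 1 of 7 risen (Rgs5). Mesenchymal markers summed to 35808 to 38047, against 27583 to 28275, with 4 of 8 risen (Col1a2, Col3a1, Dcn and Postn). Choroid plexus markers summed to 46122 to 49818, against 44028 to 44311, and of 5 Folr1 and Clic6 rose and Otx2 fell. Of 5 oligodendrocyte-lineage markers Pdgfra rose (sums 4070 to 4610 in the knockout, against 3664 to 4380 in the control). Erythroid markers summed to 38543 to 39409, against 36865 to 37329, and 0 of 3 erythroid markers passed in limma (0 at an unadjusted p under 0.05). Of all genes tested, 16.3% rose and 11% fell. The lowest signal of a tested marker was 111.0, so none was at 0. The part of these shifts in the changes described next was not tested.

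The members differed between genotypes about as often as genes in general. Of the 35 genes tested, 4 rose and 5 fell, which is 25.7%, against 27.3% of all 12489 genes tested the same way. The 4 that rose were Mfng, Adam17, Id2 and Id3, where 16.3% of all genes did. The 5 that fell were Dtx1, Numbl, Id4, Rbpj and Maml1, where 11% of all genes fell. The median log2 change over the 35 genes was 0.02, beside 0.06 over all genes, and the median size of the change was 0.24 in both. Knockout and control arrays did not overlap at 24 of the 35 genes (68.6%), beside 66.9% of all genes. The knockout was higher at 13 of these, where 39.8% of all genes were, and lower at 11, where 27.2% of all genes were. By probe set, 6 of 59 tested rose (11.7% of all 27022 did) and 7 fell (11.6% of all did), in sum 22%, against 23.2% of all. These shares are near those of all genes, so the counts are no result about the list. Log2 changes of the 35 genes lay between -0.64 and 0.75. Only 2 genes rose when either knockout array was left out. When single arrays were dropped, 3 genes fell for control 1, for control 2 and for knockout 1, and 2 for knockout 2. Of the probe sets, 3 rose without either knockout array, and 4 fell without control 1 or knockout 1 and 2 without knockout 2. In a fit with no trend of the variance with signal, 1 rose and 1 fell.

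**Figure D1:**
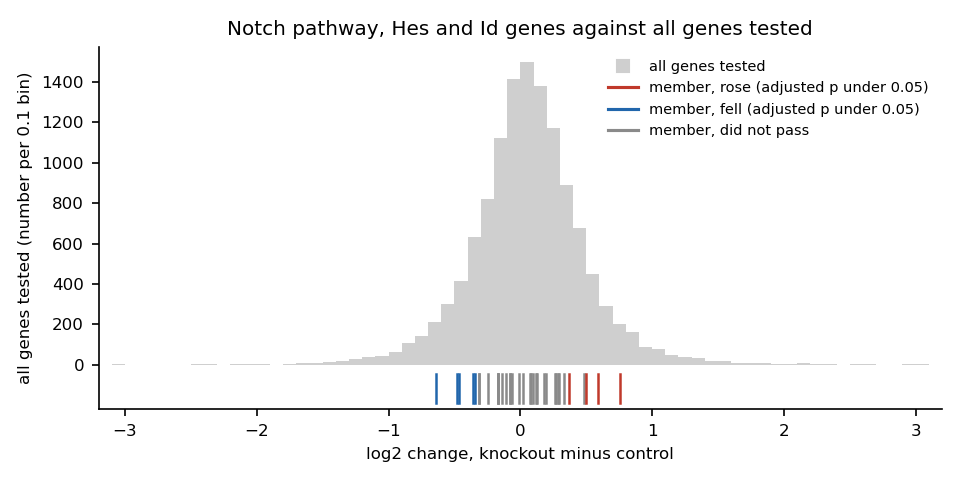
Distribution of the log2 change (knockout minus control, x axis) over all 12489 genes tested, as the number of genes per bin (grey bars, y axis), with 1 tick below it for each of the 35 member genes, coloured by call. The ticks spread from -0.64 to 0.75 on both sides of 0.

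**Figure D2:**
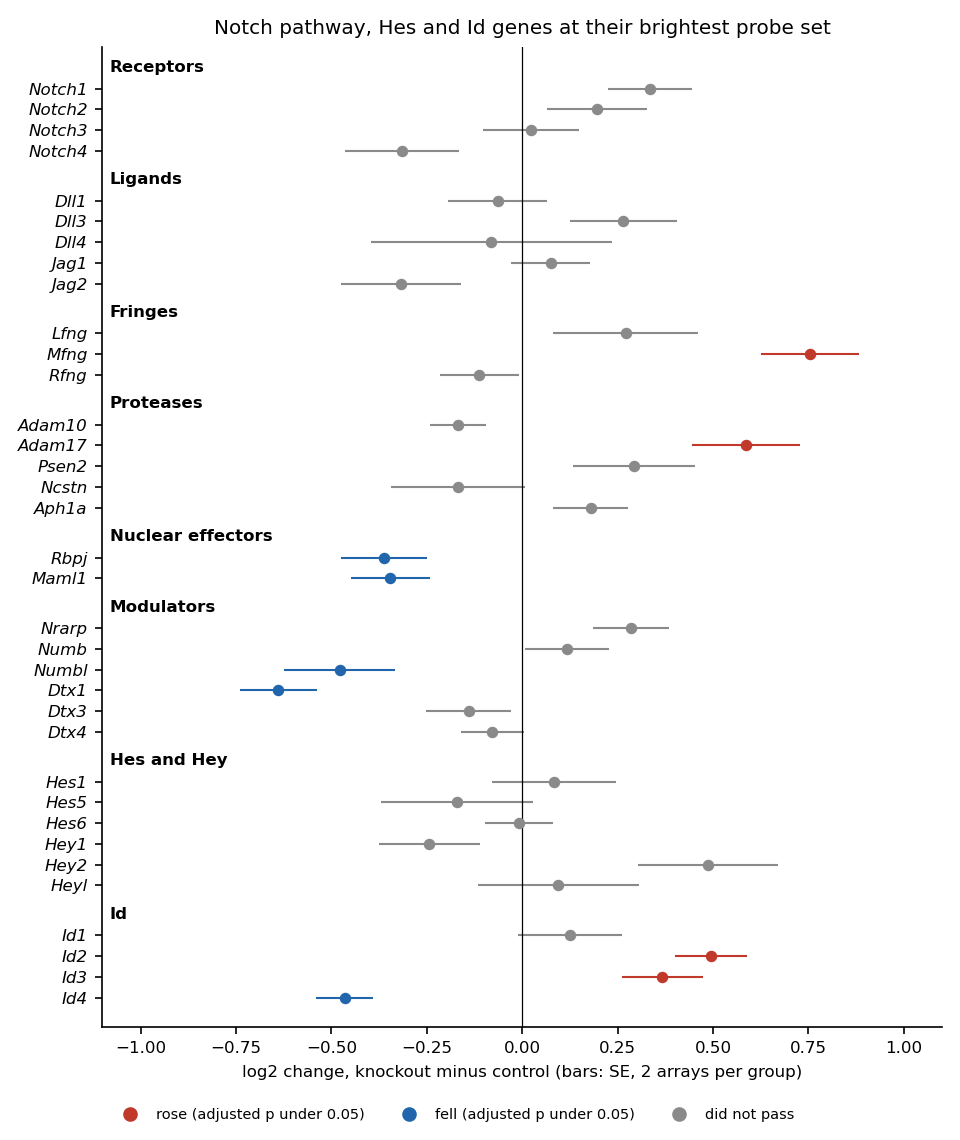
Log2 change (x axis, knockout minus control, bars show the SE, 2 arrays per group) of the 35 tested genes at their brightest probe set, grouped by role. Red points rose, blue points fell and grey points did not pass, and the receptors, the ligands and the Hes and Hey genes are all grey.

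The 250 bases before the start of transcription were taken from RefSeq (GRCm38.p6) for 4 genes: Rbpj, which fell and encodes the DNA-binding partner of Notch, Hes5, its textbook target in neural progenitors, and Id2 and Id4, relatives that moved in opposite directions. The windows are chr5:53590096-53590345 on the plus strand for Rbpj, chr4:154960673-154960922 on the plus strand for Hes5, chr12:25096093-25096342 on the minus strand for Id2 and chr13:48260866-48261115 on the plus strand for Id4. Capitals mark TGGGAA, the core that Rbpj binds, and ACAAAG or ACAATG, cores that Sox factors bind, in either orientation.
Rbpj: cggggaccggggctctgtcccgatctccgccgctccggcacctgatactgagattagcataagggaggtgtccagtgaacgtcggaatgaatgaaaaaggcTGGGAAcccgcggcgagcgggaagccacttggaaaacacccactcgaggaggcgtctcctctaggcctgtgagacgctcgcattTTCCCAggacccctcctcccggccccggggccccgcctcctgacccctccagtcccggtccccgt
Hes5: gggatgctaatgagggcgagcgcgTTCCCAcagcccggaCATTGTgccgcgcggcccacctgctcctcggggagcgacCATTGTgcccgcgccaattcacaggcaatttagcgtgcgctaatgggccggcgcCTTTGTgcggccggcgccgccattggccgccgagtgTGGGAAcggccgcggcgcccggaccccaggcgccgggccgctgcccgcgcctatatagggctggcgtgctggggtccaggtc
Id2: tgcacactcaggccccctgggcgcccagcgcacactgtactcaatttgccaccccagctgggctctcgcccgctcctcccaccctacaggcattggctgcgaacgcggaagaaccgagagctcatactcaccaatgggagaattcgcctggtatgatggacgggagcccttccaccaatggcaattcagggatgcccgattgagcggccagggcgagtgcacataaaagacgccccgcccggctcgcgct
Id4: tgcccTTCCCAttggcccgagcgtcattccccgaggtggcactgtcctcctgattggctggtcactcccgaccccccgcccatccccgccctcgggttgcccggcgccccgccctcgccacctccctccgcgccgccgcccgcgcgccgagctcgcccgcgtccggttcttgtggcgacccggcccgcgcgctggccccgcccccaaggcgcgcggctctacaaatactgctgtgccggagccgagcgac

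The Hes5 window holds TGGGAA at 226 and 82 bases before the start, in opposite orientations, ACAATG at 211 and 172 bases and ACAAAG at 118 bases, all 3 of these on the reverse strand. The Rbpj window holds TGGGAA at 149 and 65 bases before the start, and the Id4 window holds it at 245 bases. RefSeq gives more than 1 start for Rbpj, and the printed window is that of the first listed. The window of another Rbpj start holds TGGGAA at 205 bases. None of the 3 words is in the Id2 window. RefSeq windows were found for 30 of the 37 genes (37 windows, since some genes have several starts). TGGGAA was in 24.3% of these windows and in 21.6% of the 32851 windows of all genes, ACAAAG in 21.6% and 16.5%, and ACAATG in 18.9% and 10.7%. CACGCG, a word bound by Hes repressors, was in 18.9% of the member windows and 7.62% of all windows, and CACGTG, an E box, in 10.8% and 6.02%. GGCGCC, a word bound by the BMP effectors Smad1 and Smad5, was in 21.6% and 9.59%, with 4 matches in the Hes5 window and 1 in each of the Id2 and Id4 windows. Both strands were searched and base composition was not matched. Different words overlapped in the member windows at Lfng, where TGGGAA and CACGTG share bases, and at Hes5, where GGCGCC and the reverse of ACAAAG share 1 base. A match describes the letters of the window and is no evidence of binding.

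No receptor passed the threshold. Notch1, the main Notch receptor of radial glia, had signals of 4237 and 3760 on the knockout arrays, against 3435 and 2909 on the control arrays. Both knockout arrays lay above both controls. The log2 change was 0.34 ± 0.11 (SE; 95% interval 0.09 to 0.58), and its adjusted p was 0.0503 in limma. Without control 1 it passed (0.45, adjusted p = 0.0212). A dimmer Notch1 probe set gave -0.02 ± 0.22, and there the arrays overlapped.

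Notch2, a receptor found in progenitors and in the choroid plexus, read 2453 and 2205 in the knockout, against 2285 and 1800 in control brains (log2 change 0.20 ± 0.13, adjusted p = 0.309). Notch3, the receptor of pericytes and smooth muscle that radial glia also express, read 1732 and 1580, against 1780 and 1488 (0.02 ± 0.13, adjusted p = 0.918). Notch4, an endothelial receptor, read 639.1 and 663.6 in the knockout, against 746.6 and 887.8 in the control (-0.32 ± 0.15, adjusted p = 0.155), so that its knockout arrays were both the lower ones. The dimmer tested Notch3 probe set gave -0.35 ± 0.22. Of the 6 tested receptor probe sets, 1 had an unadjusted p under 0.05, that of Notch1, where 36.4% of all 27022 probe sets did.

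The ligands did not pass either, and 0 of their 7 tested probe sets had an unadjusted p under 0.05 in limma, beside 36.4% of all probe sets. Dll1, the Delta ligand of newly forming neurons, read 2083 and 1778 in the knockout, against 2215 and 1828 in the control (log2 change -0.06 ± 0.13, adjusted p = 0.764). Dll3, a divergent Delta that acts within the cell that makes it, read 1437 and 1491, against 1380 and 1070 (0.27 ± 0.14, adjusted p = 0.202). Both knockout arrays exceeded both controls at Dll3, while those of Dll1 overlapped. Jag1, a Jagged ligand of progenitors, read 2222 and 2119 in the knockout, against 2013 and 2108 in control brains (0.07 ± 0.10, adjusted p = 0.647). Jag2, its relative, read 491.4 and 577.9, against 658.9 and 676.8 (-0.32 ± 0.16, adjusted p = 0.173). At Jag1 the knockout arrays were the higher ones, at Jag2 the lower ones, and dimmer probe sets gave -0.31 ± 0.22 for Jag1 and -0.22 ± 0.24 for Jag2. Dll4, a ligand of sprouting vessels, was read at a dim probe set where the arrays overlapped (195.3 and 115.5 in the knockout, against 151.3 and 169.7 in the control). Its change there was -0.08 ± 0.32 (adjusted p = 0.885). Another Dll4 probe set, 1421827_at, was below the filter and not tested. It read 262.2 and 155.0 in the knockout, against 131.5 and 88.3 in the control, so both knockout arrays were higher.

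Of the fringes, Golgi enzymes that extend sugars on Notch and so tune its response to ligands, 1 of 3 rose, where 16.3% of all genes did. Mfng (manic fringe) had the largest rise of the 35 genes. It read 2352 and 2033 on the knockout arrays, against 1399 and 1188 on the control arrays, with means of 2192 ± 226 and 1294 ± 150 (SD, n = 2 each). The groups were well apart, with a log2 change of 0.75 ± 0.13, or 1.69-fold (limma adjusted p = 0.00247). The Mfng call was kept under all 15 other settings tried, at log2 changes of 0.64 to 0.87. Of these, the looser threshold of 0.1 could not remove a call. With 1 tested Mfng probe set, the mean over probe sets left its change as it was. Lfng (lunatic fringe) read 523.3 and 398.9 in the knockout, against 376.6 and 375.3 in the control (0.27 ± 0.19, adjusted p = 0.339). Rfng (radical fringe) gave -0.11 ± 0.10 at its brightest probe set (adjusted p = 0.473), where the arrays overlapped. A dimmer Rfng probe set, 1421160_a_at, fell, with 789.8 and 636.4 in the knockout, against 1005 and 1093 in the control (-0.55 ± 0.15, adjusted p = 0.0232). That Rfng call was lost without control 2 (-0.49, adjusted p = 0.0673) or knockout 2 (-0.40, adjusted p = 0.144), with no filter (adjusted p = 0.0573) and without the variance trend (adjusted p = 0.0725).

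Among the proteases 1 of 5 rose, where 16.3% of all genes did. Adam17 encodes a sheddase that cuts many membrane proteins, Notch among them. It read 1382 and 1492 in the knockout, against 846.0 and 1069 in the control, a log2 change of 0.59 ± 0.14 (adjusted p = 0.0145). A second Adam17 probe set rose likewise, with 1320 and 1098, against 858.7 and 612.5 (0.72 ± 0.17, adjusted p = 0.015), while the dimmest of the 3 had overlapping arrays (0.07 ± 0.21). The Adam17 call at the brightest probe set was lost without control 1 (0.42, adjusted p = 0.0783), knockout 1 (0.64, adjusted p = 0.0712) or else knockout 2 (0.53, adjusted p = 0.11), as in the fit without the variance trend (adjusted p = 0.069). At the other Adam17 probe set it was lost without control 2 (0.48, adjusted p = 0.0537), knockout 1 (0.59, adjusted p = 0.145) or knockout 2 (0.85, adjusted p = 0.0572), with no filter (adjusted p = 0.052) and without the variance trend (adjusted p = 0.0797).

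Adam10, the sheddase that makes the ligand-dependent cut of Notch, read 7571 and 7867 in the knockout, against 8592 and 8755 in the control (-0.17 ± 0.07, adjusted p = 0.127). Both knockout arrays were below both controls, and a second Adam10 probe set gave -0.21 ± 0.11. The gamma-secretase subunits did not pass. Aph1a, a scaffold subunit, read 2791 and 2672, against 2348 and 2472 (0.18 ± 0.10). Psen2, a catalytic subunit, read 989.3 and 781.9, against 664.8 and 769.9 (0.29 ± 0.16). Ncstn (nicastrin), which holds the substrate, read 372.4 and 383.6, against 415.1 and 438.3 (-0.17 ± 0.18). Dimmer probe sets gave 0.03 ± 0.13 and 0.09 ± 0.16 for Aph1a, 0.01 ± 0.56 for Psen2 and -0.01 ± 0.24 for Ncstn. At the brightest probe sets of all 5 proteases the arrays of the genotypes did not overlap, 3 times with the knockout higher and 2 times with it lower, and 66.9% of all genes did not overlap either.

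Both nuclear effectors that could be tested fell, where 11% of all genes did. Rbpj read 3666 and 2990 in the knockout, against 4050 and 4481 in the control, a log2 change of -0.36 ± 0.11 (adjusted p = 0.0422). The lower control array and the higher knockout array lay close together. The other Rbpj probe sets did not pass, at 0.04 ± 0.15 and -0.15 ± 0.14, and their arrays overlapped. The mean of the 3 gave -0.16 (adjusted p = 0.346). The Rbpj call was lost without control 2 (-0.29, adjusted p = 0.158) or knockout 2 (-0.22, adjusted p = 0.222), after median centring (-0.32, adjusted p = 0.0832), with no filter on low signal (adjusted p = 0.0967) and without the variance trend (adjusted p = 0.162).

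Maml1, a coactivator that joins Rbpj and Notch, read 1770 and 1711 in the knockout, against 2199 and 2232 in the control (-0.35 ± 0.10, adjusted p = 0.0365). Its arrays agreed closely within each genotype. The suffix of its probe set name, s_at, marks probes that can bind related transcripts, and the other tested Maml1 probe set gave -0.14 ± 0.18. The Maml1 call was lost in each of the 4 fits on 3 arrays (-0.37 to -0.32, adjusted p from 0.0915 to 0.123), after median centring (-0.30, adjusted p = 0.124), with no filter (adjusted p = 0.0503), without the variance trend (adjusted p = 0.096) and for the mean of its probe sets (-0.24, adjusted p = 0.134).

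**Figure D3:**
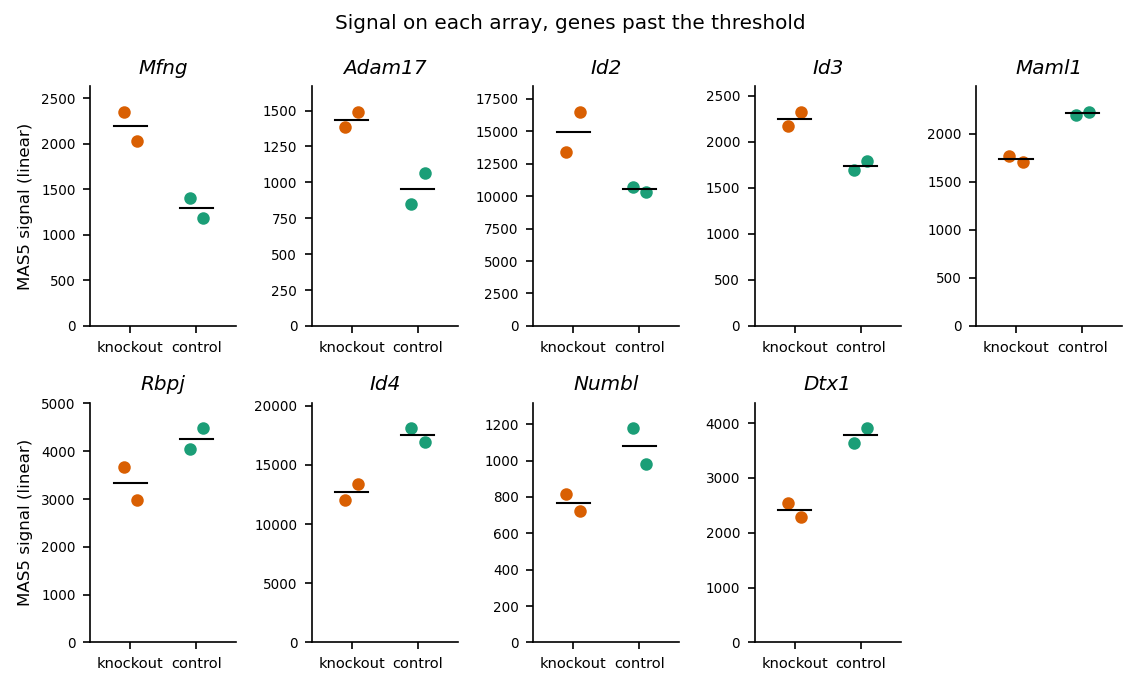
MAS5 signal (y axis, linear, from 0) on each knockout and control array for the 9 genes past the threshold, in order of log2 change, with black lines at the group means (n = 2 each). Mfng, Adam17, Id2 and Id3 are higher on both knockout arrays, and Maml1, Rbpj, Id4, Numbl and Dtx1 are lower on both.

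Among the 6 modulators, Dtx1 and Numbl fell, where 11% of all genes did. Dtx1 (deltex 1), an E3 ubiquitin ligase that binds the Notch intracellular part, had the largest fall of the 35 genes. It read 2550 and 2289 on the knockout arrays, against 3642 and 3907 on the control arrays, with means of 2419 ± 185 and 3775 ± 187 (SD, n = 2 each). The gap between the genotypes was several times the spread within them, with a log2 change of -0.64 ± 0.10 (1.56-fold lower, adjusted p = 0.00169). The Dtx1 call was kept under all 15 other settings, at -0.72 to -0.56. Here too the threshold of 0.1 could not remove the call, and the mean over probe sets held only 1 tested probe set. Its relatives Dtx3 (-0.14 ± 0.11) and Dtx4 (-0.08 ± 0.08, and 0.14 ± 0.24 at a dimmer probe set) did not pass.

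Numbl (Numb-like) encodes an adaptor that, with Numb, limits Notch in dividing progenitors and newborn neurons. It read 814.8 and 723.1 in the knockout, against 1178 and 981.3 in the control (-0.48 ± 0.15, adjusted p = 0.0382). Both knockout arrays were below both controls. Numbl lost its call without control 1 (-0.35, adjusted p = 0.205), knockout 1 (-0.56, adjusted p = 0.0894) or else knockout 2 (-0.39, adjusted p = 0.187), with no filter (adjusted p = 0.0803) and without the variance trend (adjusted p = 0.0907). Numb itself read 1648 and 1699, against 1514 and 1569 (0.12 ± 0.11, adjusted p = 0.48). Nrarp, a target of Notch that feeds back on the Notch complex, read 4119 and 3597 in the knockout, against 3189 and 3121 in the control. Both knockout arrays lay above both controls (0.29 ± 0.10, adjusted p = 0.0618), while a dimmer Nrarp probe set gave -0.20 ± 0.17 with overlapping arrays.

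None of the 6 Hes and Hey genes passed at any of their 9 tested probe sets, and 1 probe set, that of Hey2, had an unadjusted p under 0.05 in limma, beside 36.4% of all probe sets (27.3% of all genes and 23.2% of all probe sets passed). Hes1, a repressor that oscillates in progenitors, read 646.2 and 595.3 in the knockout, against 648.4 and 526.5 in the control. The arrays overlapped, and the log2 change was 0.08 ± 0.16 (95% interval -0.28 to 0.45, adjusted p = 0.754). Hes5 read 1601 and 1175, against 1247 and 1916, at its brightest probe set. Here the arrays of 1 genotype differed from each other by more than the genotypes did, and the change was -0.17 ± 0.20 (95% interval -0.62 to 0.27, adjusted p = 0.582). The other Hes5 probe set read 753.6 and 657.9 in the knockout, against 810.9 and 808.1 in the control (-0.20 ± 0.14, adjusted p = 0.354), with both knockout arrays lower. The brightest Hes5 and Hes6 probe sets have the suffix x_at, which marks probes that can bind other transcripts. Those of Notch3 and Aph1a have the suffix s_at, as that of Maml1 does.

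Hes6, which unlike Hes1 favours neuronal differentiation, read 4305 and 4014, against 4072 and 4290, and gave -0.01 ± 0.09 (95% interval -0.21 to 0.19). That was the narrowest interval among the Hes and Hey genes. Hey1, a Notch target of progenitors and vessels, read 981.1 and 968.6 in the knockout, against 1250 and 1070 in the control (-0.24 ± 0.13, adjusted p = 0.214). Hey2, known for its part in arteries and the heart, read 431.4 and 431.5, against 315.6 and 291.7 (0.49 ± 0.18, adjusted p = 0.0828). At Hey1 both knockout arrays were lower, and at Hey2 both were higher. Heyl, a relative, gave 0.09 ± 0.21 and, at a dimmer probe set, 0.20 ± 0.30, with overlapping arrays at both. The dimmer Hes6 probe set gave 0.10 ± 0.12.

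The Id genes split. Id2 and Id3 rose, Id4 fell and Id1 did not pass, where 16.3% of all genes rose and 11% fell. Id2 read 13380 and 16516 on the knockout arrays, against 10743 and 10334 on the control arrays (means 14948 ± 2217 and 10538 ± 289; SD, n = 2 each). The groups stood apart although the knockout arrays differed from each other, with a log2 change of 0.50 ± 0.09, or 1.41-fold (adjusted p = 0.00444). A second Id2 probe set, 1422537_a_at, rose more, with 9225 and 8710, against 5072 and 5221 (0.80 ± 0.08, 1.74-fold, adjusted p = 0.000126). The dimmest, 1453596_at, did not pass, and read 449.5 and 415.4 in the knockout, against 497.3 and 478.5 in the control (-0.17 ± 0.17, adjusted p = 0.505).

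Id3 read 2177 and 2327 in the knockout, against 1692 and 1792 in the control (0.37 ± 0.11, adjusted p = 0.0317). Its call was lost with any 1 array left out, at 0.33 without control 1 (adjusted p = 0.138), 0.41 without control 2 (adjusted p = 0.054), 0.42 without knockout 1 (adjusted p = 0.0775) and 0.32 without knockout 2 (adjusted p = 0.14), and also without the variance trend (adjusted p = 0.0946). Id1 read 1392 and 1768, against 1488 and 1386. The arrays overlapped, and the change was 0.13 ± 0.14 (95% interval -0.18 to 0.43, adjusted p = 0.546).

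Id4, the Id gene of neural stem cells and astroglia, read 12030 and 13392 on the knockout arrays, against 18102 and 16966 on the control arrays (means 12711 ± 964 and 17534 ± 803; SD, n = 2 each). The log2 change was -0.46 ± 0.07, or 1.38-fold lower (adjusted p = 0.00182). The other 2 Id4 probe sets were also lower on both knockout arrays, with 3606 and 4118, against 6416 and 4619 at 1423260_at (-0.50 ± 0.14, adjusted p = 0.0275) and 12089 and 11386, against 14197 and 13106 at 1423259_at (-0.22 ± 0.07, adjusted p = 0.0541). The calls of Id2 and Id4 at their brightest probe sets were kept with any 1 array left out (0.34 to 0.65 for Id2 and -0.54 to -0.39 for Id4) and lost without the variance trend (adjusted p = 0.0843 for Id2 and adjusted p = 0.068 for Id4). The call at 1423260_at was lost without control 1 (-0.26, adjusted p = 0.194), knockout 1 (-0.40, adjusted p = 0.203) or knockout 2 (-0.59, adjusted p = 0.0858), with no filter (adjusted p = 0.0914) and without the variance trend (adjusted p = 0.148).

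**Figure D4:**
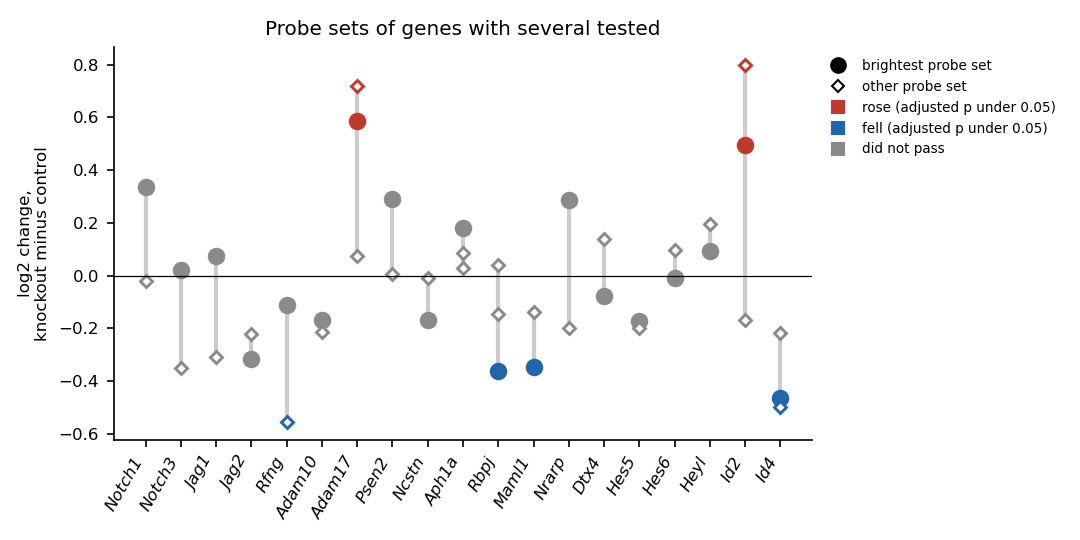
Log2 change (y axis, knockout minus control) of every tested probe set of the 19 genes that had several, with large circles for the brightest and small diamonds for the others, coloured by call, and a grey line over the range within a gene. In 8 genes the probe sets fall on both sides of 0, and for Id4 and Adam17 every probe set lies on 1 side.

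Probe sets of 1 gene often differed in size of change. Of the 35 genes, 19 had several tested probe sets, and in 8 of these the probe sets had changes of both signs. In 0 genes did 1 probe set rise and another fall. The median difference between arrays of 1 genotype over the 59 tested member probe sets was 0.17 on the log2 scale in the knockout and 0.14 in the control, beside 0.15 and 0.14 over all probe sets tested.

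Other genes of the pathway were taken from a list of 73, of which 59 could be tested. Of these 8 rose, 9 fell and 42 did not pass, which is 28.8% called beside 27.3% of all genes, with a median log2 change of 0.03. Leaving out 1 array changed the number that rose to 3 without knockout 1 and the number that fell to 5 without knockout 2. The largest rise was that of Cntn1, an adhesion molecule reported as a Notch ligand in oligodendrocyte precursors, with 7693 and 7225 in the knockout, against 3093 and 3442 in the control (1.19 ± 0.09, adjusted p = 4.25e-05). Neurog2, a proneural gene that Hes proteins repress, read 7231 and 7856, against 5100 and 4339 (0.68 ± 0.10, adjusted p = 0.000986). Neurl1b (0.65), a ligase acting on ligands, Nes (0.61), a filament of progenitors whose gene has been described as a Notch target, and Hdac1 (0.59), a histone deacetylase found with Rbpj in repressor complexes, followed. The remaining 3 rises were those of Sox9 (0.57), a progenitor factor, the gamma-secretase subunit Psenen (0.37) and Tcf4 (0.21). These 3 calls were not followed gene by gene under the alternatives. A dimmer Sox9 probe set was higher on both knockout arrays and did not pass (0.34 ± 0.15). The Neurl1b call was lost without control 2 (0.45, adjusted p = 0.0833), knockout 1 (0.55, adjusted p = 0.152) or else knockout 2 (0.75, adjusted p = 0.0708), with no filter (adjusted p = 0.0576) and without the variance trend (adjusted p = 0.0755). So was that of Nes, which is also on the radial glial list, without knockout 1 (0.55). Dimmer Nes probe sets did not pass, at 0.15 ± 0.15 and -0.11 ± 0.26, and their arrays overlapped.

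On the falling side, Atoh1, a proneural gene of the hindbrain, read 121.4 and 124.0 in the knockout, against 355.2 and 224.4 in the control (-1.11 ± 0.29, adjusted p = 0.0197). Its call did not hold without knockout 1 (-1.09, adjusted p = 0.103), nor without knockout 2 (-1.12, adjusted p = 0.0941), nor with no filter (adjusted p = 0.0748). Without control 1 it was under the filter and not tested (-0.79). Nedd4l, a ubiquitin ligase of the Nedd4 family, read 2488 and 2079, against 4124 and 5161 (-1.02 ± 0.13, adjusted p = 0.000508). L3mbtl3, a chromatin reader that binds Rbpj, read 1722 and 1714, against 2901 and 3127 (-0.80 ± 0.10, adjusted p = 0.000514), and its groups were far apart relative to their spread. Bcl2 (-0.56), a survival gene, and Wwp2 (-0.56), another Nedd4-family ligase, completed the 5 largest falls. A dimmer Wwp2 probe set, 1448145_at, was higher on both knockout arrays and did not pass (0.32 ± 0.19). Wwp2 lost its call without control 2 (-0.48, adjusted p = 0.095), knockout 1 (-0.65, adjusted p = 0.0647) or knockout 2 (-0.47, adjusted p = 0.134), with no filter (adjusted p = 0.0582) and without the variance trend (adjusted p = 0.0558). The remaining 4 falls were those of the corepressor Tle4 (-0.33), the deacetylase Hdac2 (-0.44), the Delta-like gene Dlk2 (-0.50) and the gamma-secretase subunit Aph1b (-0.53). These 4 calls were likewise not followed gene by gene under the alternatives. Dimmer probe sets of Tle4, Dlk2 and Aph1b were also lower on both knockout arrays but did not pass. Of the E proteins that Id proteins bind, Tcf4 rose (0.21 ± 0.06, adjusted p = 0.0325), and Tcf3 (0.02) and Tcf12 (0.03) did not pass.

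**Figure D5:**
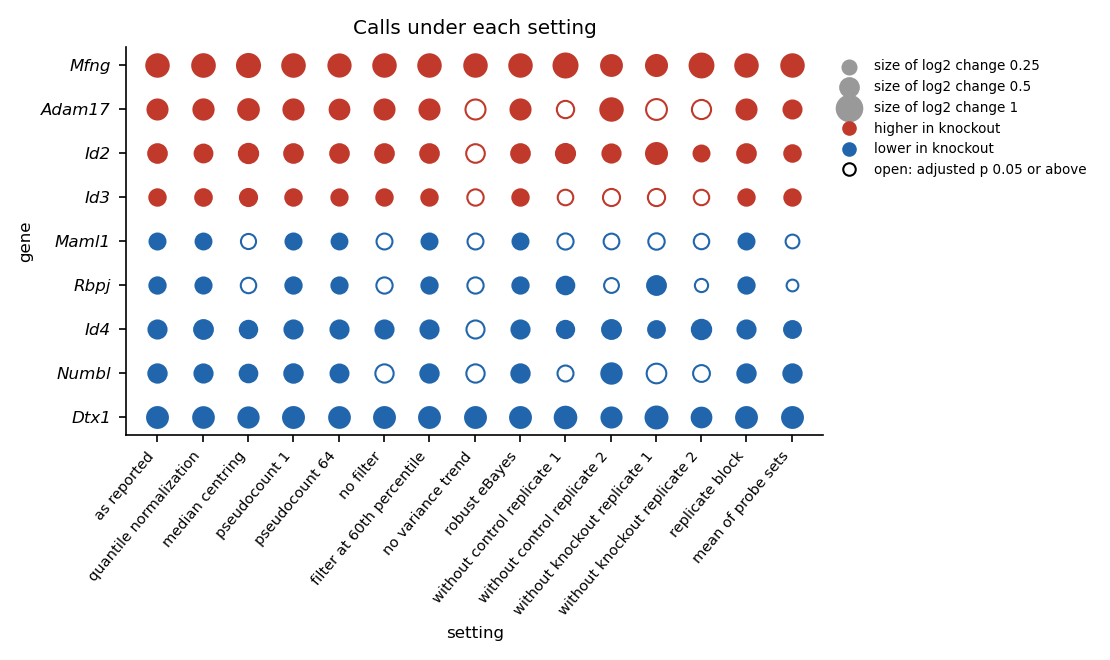
Calls of the 9 genes (rows) under the reported setting and 14 others (columns), with the area of each circle growing with the size of the log2 change, red for higher and blue for lower in the knockout, and open circles where the adjusted p was 0.05 or above. Mfng and Dtx1 are filled throughout, Id2 and Id4 are open only without the variance trend, and Maml1 is open in 8 columns.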

How the data were processed

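Whole-brain total RNA was amplified and biotinylated, per the labels' protocols, for 4 Affymetrix arrays. The authors deposited linear probe set intensity values, for which the submitters' processing notes name MAS5 version 5.0. Their means after trimming 2% at either end were equal on all 4 arrays, so a shift of most transcripts would have been removed. Detection calls and the genome build are not given in the sources used here. Signals were taken as log2(signal + 16) without further normalization. Probe sets were kept above the 40th percentile of mean log2 value (signal 154.6), which left 27022. The fit was lmFit and eBayes with a variance trend in limma 3.58.1 under R 4.3.3, adjusted by Benjamini-Hochberg over those 27022. Symbols came from the platform annotation, and all 72 member probe sets matched RefSeq by gene ID. Promoter windows are RefSeq's. A protein comparison that had been planned was not made.

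The members, lists and tests were chosen with earlier results of these data known. Named were all members, Sox4 and Sox11, the 5 largest called rises and falls among other pathway genes, and the highest and lowest marker of a list. The other markers, the remaining called pathway genes and the E proteins were named after their values were seen. Groups and replicate numbers came from the sample titles. The alternatives changed the scaling (median centring or quantile normalization), the pseudocount (1 or 64), the filter (none or the 60th percentile), the prior (without trend, or robust), the threshold (0.1), the probe set rule (averaging the probe sets of each gene) and the arrays (leaving out each in turn), or added a replicate block. The steps were tested on simulated data.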

Additional observations from a re-analysis of the deposited data

How the results depend on the processing

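The calls of Mfng and Dtx1 held under every alternative run, of which the threshold of 0.1 could not remove a call. Without the variance trend 3114 probe sets passed in place of 6277, and 1 member gene rose and 1 fell, with 2 and 1 member probe sets and 4 and 5 other pathway genes. With no filter 2 member genes and 2 member probe sets fell and 5 pathway genes rose, in a test over 45037 probe sets. After median centring 3 member genes fell. At a threshold of 0.1, 7 member genes and 14 pathway genes rose. With 1 array left out, the probe sets called ranged from 3132 (without knockout 1) to 5422, member genes that rose from 2 to 3 and that fell from 2 to 3, member probe sets that rose from 3 to 5 and that fell from 2 to 5, and pathway genes that rose from 3 to 7 and that fell from 5 to 7. These fits assume that the array left alone in its group varies like the others. Psen2 at 1431542_at gave 0.01 with all arrays and -1.05 to 0.41 in the 3 tested fits with 1 array left out. It passed at -1.05, without control 2 (adjusted p = 0.0207). Without control 1 it was under the filter and not tested, and its plain difference was 1.06. Its sign thus rests on which array, control or knockout, is left out. Counted per probe set and alternative, 33 values that had not passed changed sign, and of these only that of Psen2 passed. The averaging of probe sets is not part of that count.

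Notch1 passed after median centring (adjusted p = 0.0357), with a pseudocount of 64 (adjusted p = 0.0498), a filter at the 60th percentile (adjusted p = 0.0432), a robust prior (adjusted p = 0.042) and the replicate block (adjusted p = 0.0207). The second Id4 probe set, 1423259_at, passed after quantile normalization and 3 other settings, and Adam10 after quantile normalization (adjusted p = 0.0491). Hey2 and Rfng passed in the limma fit on the mean over probe sets (adjusted p = 0.0404 and adjusted p = 0.0459). Hey2 had 1 probe set, so nothing was averaged there, and its log2 change was 0.49 as in the reported setting. The replicate numbers pair no samples by the labels, and deviations of same-numbered arrays had a correlation of 0.00283. With the replicate block 6844 probe sets were called, 5 member genes rose and 5 fell, 7 member probe sets rose and 8 fell, and 9 other pathway genes rose and 9 fell. The causes of these changes were not tested. Signals near the filter limit and 2 arrays per group limit what can be called.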

Other observations

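The 13 member probe sets below the filter were read in a fit over all probe sets, where 0 passed limma's adjusted threshold and 2 had an unadjusted p under 0.05, where 24% of all 45037 probe sets did. Those were Adam10 at 1460083_at, with 90.9 and 32.7 in the knockout, against 205.3 and 220.5 in the control (log2 change -1.66 ± 0.45, adjusted p = 0.0632), and Dtx1 at 1458643_at, with 43.0 and 62.4, against 17.8 and 7.8 (1.26 ± 0.44, adjusted p = 0.128), a sign opposite to that of the bright Dtx1 probe set. Maml2 read 13.5 and 14.2, against 5.6 and 5.4.

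The probe sets of Nedd4l and Tcf12 differed in their calls. Nedd4l fell at 5 of its 6 probe sets and gave 0.09 ± 0.10 at 1423269_a_at. Tcf12 gave 0.03 at its brightest probe set, fell at 2 dimmer ones (-0.59 and -0.69) and rose at 1446294_at (0.75, adjusted p = 0.0498). Hdac2 fell at all 3 of its probe sets (-0.44, -0.64 and -0.81), and Hdac1 rose at its only one. The brightest Hdac2 probe set has the suffix s_at, as that of Maml1 does. These genes were picked after their values were seen.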
